A study of Rattus norvegicus with 23 samples.

Results

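The comparison described here sets PC12 cells that stably expressed α1ACT against PC12 cells with the empty vector at a single time, 24 h after the cultures were split. It rests on 6 of the 23 small RNA libraries of the series, 3 of each line, chosen by the line and the time in their labels and not by any measured value. PC12 is a rat pheochromocytoma line, grown from a tumour of the adrenal medulla, with traits of both endocrine and nerve cells. In the series both lines were also sampled at 6 h, 3 d and 10 d, and the question it posed is which miRNAs respond to α1ACT. Both lines had been transfected with a pcDNA3 plasmid and put under G418 selection, so the vector cells carried the backbone and the selection as well. The α1ACT plasmid encoded the protein with 11 glutamine repeats, the length of the normal allele, and a Flag tag at its C-terminus. Stable clones were used, and their number per line is not stated, so a difference between the lines and a difference between clones cannot be told apart. Whether replicates were grown as separate cultures is not stated either, and p-values then reflect only the spread of these samples, which may be technical.

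α1ACT is a transcription factor made from the second reading frame of CACNA1A, the gene of the P/Q-type calcium channel, and an expanded glutamine repeat in it belongs to spinocerebellar ataxia type 6. A miRNA is a short RNA cut from a hairpin precursor, and either arm of the hairpin (5p or 3p) can be loaded into an Argonaute protein. The loaded strand finds target mRNAs mainly by pairing through its seed, the bases near its 5′ end, and miRNAs with a common seed share many predicted targets. Members of a family can come from different hairpins on different chromosomes, so their levels need not move together.

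The sequences of the miRNAs on which the 24 h comparison turns follow, from RefSeq (tables of assembly GRCr8, which need not be the build behind the counts). They are written 5′ to 3′ with the seed, bases 2 to 8, in capitals. The first group holds the miRNA that was called and the 3 other miRNAs with its seed.
miR-181a-5p: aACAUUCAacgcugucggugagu
miR-181b-5p: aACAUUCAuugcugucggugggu
miR-181c-5p: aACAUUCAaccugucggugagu
miR-181d-5p: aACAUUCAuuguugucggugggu
A second group holds both arms of the miR-708 hairpin and the miRNAs next in line by p-value. miR-10b-5p and miR-450b-5p are shown only as relatives of miR-10a-5p and miR-450a-5p. Within this group only miR-450a-5p and miR-450b-5p share a seed.
miR-708-5p: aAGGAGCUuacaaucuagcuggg
miR-708-3p: cAACUAGAcugugagcuucuag
miR-143-3p: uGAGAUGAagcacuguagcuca
miR-10a-5p: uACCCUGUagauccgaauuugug
miR-10b-5p: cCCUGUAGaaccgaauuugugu
miR-450a-5p: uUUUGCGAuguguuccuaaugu
miR-450b-5p: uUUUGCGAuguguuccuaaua
let-7d-3p: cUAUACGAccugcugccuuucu
The last group shows a pair of entries that carry 1 sequence under 2 names, which sets how far their counts can be used.
let-7a-1-3p: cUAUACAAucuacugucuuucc
let-7c-2-3p: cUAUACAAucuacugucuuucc

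The 6 libraries held between 1557147 and 3028200 miRNA counts. Levels are given as CPM (read counts scaled to a common library total, with factors from the trimmed mean of M values, TMM). Of 413 entries in the count table, 269 had enough counts to be tested. The neuroendocrine list was led by miR-375-3p and miR-182. miR-375-3p, best known from pancreatic islets, was the second most abundant of all at 24 h, at 135710 ± 5999 CPM in the vector line (SD, n = 3) and 121923 ± 8540 CPM in the α1ACT line. miR-182 of the same sensory and neuroendocrine group was at 33260 ± 5114 and 30333 ± 1279 CPM. Other members were scarcer: miR-96-5p averaged 226 CPM over the 6 libraries and miR-7a-5p 3.93 CPM, and miR-7b had 0 to 6 counts a library. Small RNA libraries do not measure α1ACT itself, so the label of the line was not checked by its transgene.

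The libraries of the lines did not form 2 separate sets. Over 216 miRNAs with at least 10 CPM the typical distance (root mean square of log2 differences) was 0.31 to 0.43 between vector libraries and 0.28 to 0.32 between α1ACT libraries. Between the lines it was 0.26 to 0.51, and the nearest pair of all was vector replicate 1 and α1ACT replicate 2. Vector replicate 2 stood apart most: it was the farthest of the 6 from the median for 65 of the 216 miRNAs (30.1%). In it miR-10b-5p reached 144669 CPM, against 106041 to 108399 CPM in the other 5 libraries.

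At 24 h 1 miRNA differed between the lines: miR-181a-5p, a brain-enriched miRNA also known from lymphocytes, rose in the α1ACT line. With edgeR (quasi-likelihood test, Benjamini-Hochberg adjustment over all tested miRNAs) it was the single call among 269 (0.372%). At an unadjusted p under 0.05 there were 28 miRNAs (10.4%), 14 higher and 14 lower in the α1ACT line. In 46 of the 269 (17.1%) the 3 libraries of 1 line all lay above the 3 of the other, 22 with α1ACT on top (8.18%) and 24 with the vector on top (8.92%). With the replicate number as a block, the edgeR test called 3: miR-181a-5p, miR-10a-5p and miR-708-5p (Benjamini-Hochberg adjusted p = 0.00129, 0.0396 and 0.0383). That block gave each replicate number 1 effect common to all 4 times. The block fitted to the 6 libraries of 24 h alone, an alternative chosen after seeing the data, called 0 of 250.

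Most differences were small. The median log2 fold change over all 269 was 0.0040 and the median of its absolute value was 0.16. In 7 miRNAs it reached 1 in either direction, and of these miR-181a-5p and miR-708-3p averaged 10 CPM or more. The precision followed abundance: the median standard error was 0.11 (log2) for the 62 miRNAs with at least 1000 CPM and 0.49 for the 51 under 10 CPM. The 95% confidence interval of the log2 fold change lay within 1 unit of 0 for 211 miRNAs and within 0.5 for 110, among them 54 of the 62 with at least 1000 CPM. For these miRNAs a change beyond the bounds lies outside the interval, and for scarce ones the intervals are wide.

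**Figure D1:**
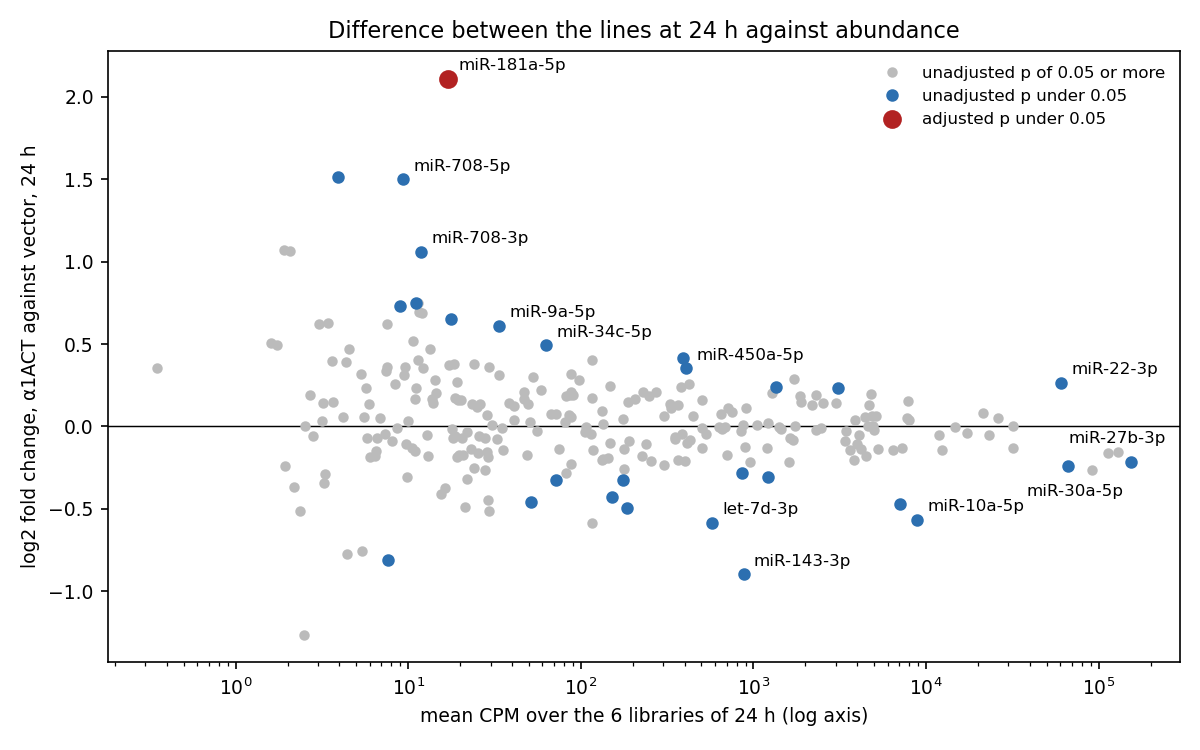
Log2 fold change of α1ACT against vector at 24 h (vertical axis) against mean abundance over the 6 libraries (CPM, log axis), 1 point per tested miRNA, without the entries for let-7a-1-3p and for let-7c-2-3p. Red marks the call, miR-181a-5p at 2.11, blue an unadjusted p under 0.05, and gray all others. The spread narrows towards abundant miRNAs, where blue points sit at small values such as 0.27 for miR-22-3p.

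miR-181a-5p had 18, 22 and 5 counts in vector replicates 1 to 3 and 125, 43 and 59 in α1ACT replicates 1 to 3. As CPM these are 6.18, 9.14 and 3.29 against 38.4, 18.3 and 26.4. The groups did not overlap, and the lowest α1ACT library, replicate 2, stood above the highest vector library. The means were 6.20 ± 2.92 and 27.7 ± 10.1 CPM (SD, n = 3 each), which gave a fitted fold of 4.32 and a log2 fold change of 2.11 (SE 0.384, 95% interval 1.32 to 2.90, edgeR Benjamini-Hochberg adjusted p = 0.00283). It ranked 197th by abundance, so the call rests on few reads. The call was lost in 3 of 19 other settings, at a Benjamini-Hochberg adjusted p of 0.116 with limma-voom, 0.0686 without vector replicate 1 (edgeR), and 0.186 in an edgeR fit of the 6 libraries alone with the replicate block. Over these settings its log2 fold change ran from 1.79 to 2.50 and the adjusted p from 1.66e-05 to 0.186.

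The abundant miRNAs with the miR-181 seed overlapped between the lines. miR-181c-5p, the main member in these cells, was at 7642, 7140 and 7573 CPM in the vector line and at 8509, 7502 and 8858 CPM in the α1ACT line. The lines overlapped, and the log2 fold change was 0.15 (95% interval -0.054 to 0.36). miR-181d-5p, from the same cluster as miR-181c, was at 2496, 2239 and 2460 against 2732, 2459 and 2751 CPM, again with an overlap and a log2 fold change of 0.14 (-0.054 to 0.34). miR-181b-5p, whose hairpins sit beside those of miR-181a, had 2, 2 and 4 counts against 15, 0 and 6 (log2 fold change 1.07, 95% interval -0.67 to 2.82), too few to tell a direction. The difference between members of the seed group was not tested.

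The pool of reads with this seed, 75.6% of them miR-181c-5p, overlapped between the lines. Its sum was at 9594, 9748 and 9687 CPM in the vector line and 10548, 9517 and 12006 CPM in the α1ACT line, where the lowest α1ACT library lay below all vector libraries (log2 fold change 0.14, SE 0.101). Within the pool, miR-181a-5p took 0.0609%, 0.0973% and 0.0328% of the reads in the vector libraries and 0.340%, 0.183% and 0.227% in the α1ACT libraries. The exact (Clopper-Pearson) 95% intervals, which cover counting error only, reached up to 0.147% in vector replicate 2 and down to 0.133% in α1ACT replicate 2. The shares did not overlap (two-sided exact permutation test, p = 0.1, the smallest that 3 against 3 libraries can give). The share restates the counts of a miRNA picked for its call, so this separation is no further result. miR-181a-5p and miR-181c-5p are 1 edit apart, so reads of the abundant member that carry an error could enter the scarce one, and miR-181a-5p counts are uncertain to that extent.

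**Figure D2:**
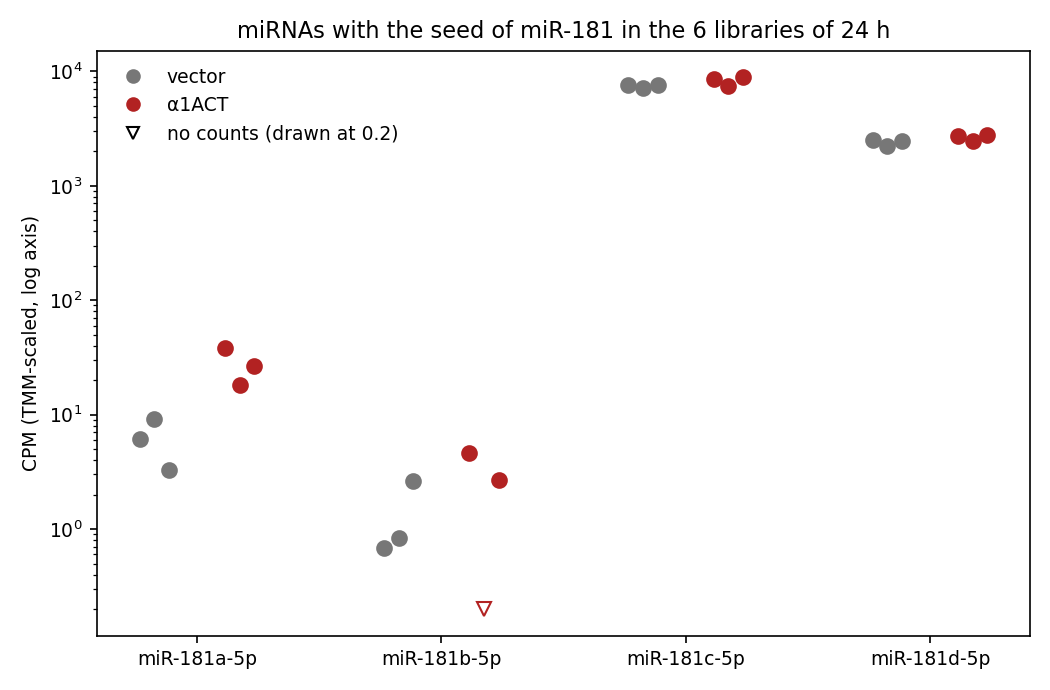
Level of the 4 miRNAs with the miR-181 seed in each library of 24 h (CPM, log axis), with replicates 1 to 3 from left to right in each line and an open triangle for a library with 0 counts. miR-181a-5p is separated between the lines at 3.29 to 38.4 CPM, while miR-181c-5p and miR-181d-5p overlap at 2239 to 8858 CPM.

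miR-708 is made from a hairpin inside Tenm4, the gene of a teneurin, a transmembrane protein of neurons. Its 5p arm was at 4.81, 1.25 and 9.22 CPM in the vector line and at 15.0, 9.79 and 15.7 CPM in the α1ACT line, on 3 to 49 counts a library. The α1ACT libraries all lay above the vector libraries, by a narrow margin between vector replicate 3 and α1ACT replicate 2. The log2 fold change was 1.50 (SE 0.483), and edgeR's Benjamini-Hochberg adjusted p was 0.210, past the threshold only with the replicate block.
The 3p arm was at 9.27, 1.66 and 12.5 against 15.3, 11.9 and 20.2 CPM, with vector replicate 3 above α1ACT replicate 2 (log2 fold change 1.06, SE 0.424, and 0.60 without vector replicate 2). Vector replicate 2 was the lowest library for both arms, with 3 and 4 counts. Of the reads of the hairpin, the 5p arm made 39.8 ± 4.91% in the vector line and 46.1 ± 3.00% in the α1ACT line (SD, n = 3). The log2 ratio of the arms differed by 0.35 (SE 0.240), a difference that did not pass limma's test.

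Among the miRNAs that were lower in the α1ACT line, miR-143-3p came nearest to a call. It is made with miR-145 from the long RNA Carmn and is known from smooth muscle and other mesenchymal cells. It was at 1309, 857 and 1256 CPM in the vector line and 532, 768 and 536 CPM in the α1ACT line. No α1ACT library reached the lowest vector library, though vector replicate 2 and α1ACT replicate 2 lay close together. The log2 fold change was -0.90 (SE 0.218, edgeR Benjamini-Hochberg adjusted p = 0.0663), and it stayed between -1.05 and -0.78 in the 19 other settings, 7 of which called it. The adjusted p over these settings ran from 0.000593 to 0.481.

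miR-10a-5p, encoded among the Hoxb genes, had the tightest vector values of this set, at 10343, 10748 and 10529 CPM. In the α1ACT line it was at 6704, 8124 and 6531 CPM, below all vector libraries. The log2 fold change was -0.57 (SE 0.150, edgeR Benjamini-Hochberg adjusted p = 0.0795), and 5 of the 19 other settings called it, with an adjusted p from 0.00994 to 0.481 over all. Its relative miR-10b-5p, encoded beside Hoxd4, was over 10 times as abundant and overlapped between the lines: 108306, 144669 and 106806 against 108399, 106041 and 106996 CPM. The log2 fold change of miR-10b-5p was -0.16 (SE 0.177), and it became 0.026 without vector replicate 2. As the sequences above show, the entry for miR-10b-5p in RefSeq starts further in than that for miR-10a-5p, so bases 2 to 8 did not put them in the same seed group.

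let-7d-3p, the lesser arm of the let-7d hairpin, was at 595, 914 and 560 CPM in the vector line and 455, 548 and 378 CPM in the α1ACT line. The vector libraries all lay above, and replicate 2 was the highest in each line. The log2 fold change was -0.58 (SE 0.177, edgeR Benjamini-Hochberg adjusted p = 0.169), and -0.30 without vector replicate 2. The guide arm, let-7d-5p, was at 7636 ± 212 against 7921 ± 890 CPM (SD, n = 3), a log2 fold change of 0.053. The log2 ratio of 5p to 3p was 3.65, 3.11 and 3.75 in the vector line and 3.92, 3.93 and 4.49 in the α1ACT line, without overlap, a difference of 0.61 (SE 0.195, limma's moderated test, Benjamini-Hochberg adjusted p = 0.499).

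Over all 84 pairs of arms with enough counts on both sides, limma called no difference in arm ratio, and 2 passed an unadjusted p under 0.05 (2.38%): let-7d and miR-342 (difference 0.37, SE 0.163). The arms of a hairpin had a log2 fold change of the same sign in 50 of the 84 pairs. Across these pairs the correlation of the 5p with the 3p log2 fold change was 0.51 (Pearson) and 0.43 (Spearman). Pairs are not independent replicates, and the arms of a pair come from the same libraries.

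miR-450a-5p had the smallest p among the miRNAs that were higher at more than 100 CPM. It was at 362, 377 and 338 CPM in the vector line and 469, 474 and 433 CPM in the α1ACT line, 2 tight sets that did not overlap. The log2 fold change was 0.35 (SE 0.106, edgeR Benjamini-Hochberg adjusted p = 0.165). Under upper-quartile factors and under library totals it was called (adjusted p over the 19 settings 0.0268 to 0.481). Its hairpin lies in a cluster with those of miR-322, miR-503, miR-450b, miR-542 and miR-351, a group known for the control of the cell cycle. miR-450b-5p, with the same seed, was at 78.4 ± 6.90 against 97.8 ± 14.4 CPM (log2 fold change 0.32, SE 0.170). miR-322-5p was at 1190 ± 45.5 against 1371 ± 158 CPM (0.20, SE 0.116) and miR-322-3p at 312 ± 33.2 against 343 ± 27.7 CPM (0.14, SE 0.119). The arms of miR-542 were at 0.38 (5p, SE 0.210) and 0.092 (3p, the more abundant, SE 0.154), and those of miR-503 at 0.33 (5p, SE 0.491) and 0.14 (3p, SE 0.284). The abundant miR-351-5p of that cluster, at 4928 ± 581 and 4933 ± 378 CPM, had a log2 fold change of 0.0014 (95% interval -0.22 to 0.22). miR-542 and miR-351 were added to the description after their values were seen.

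**Figure D3:**
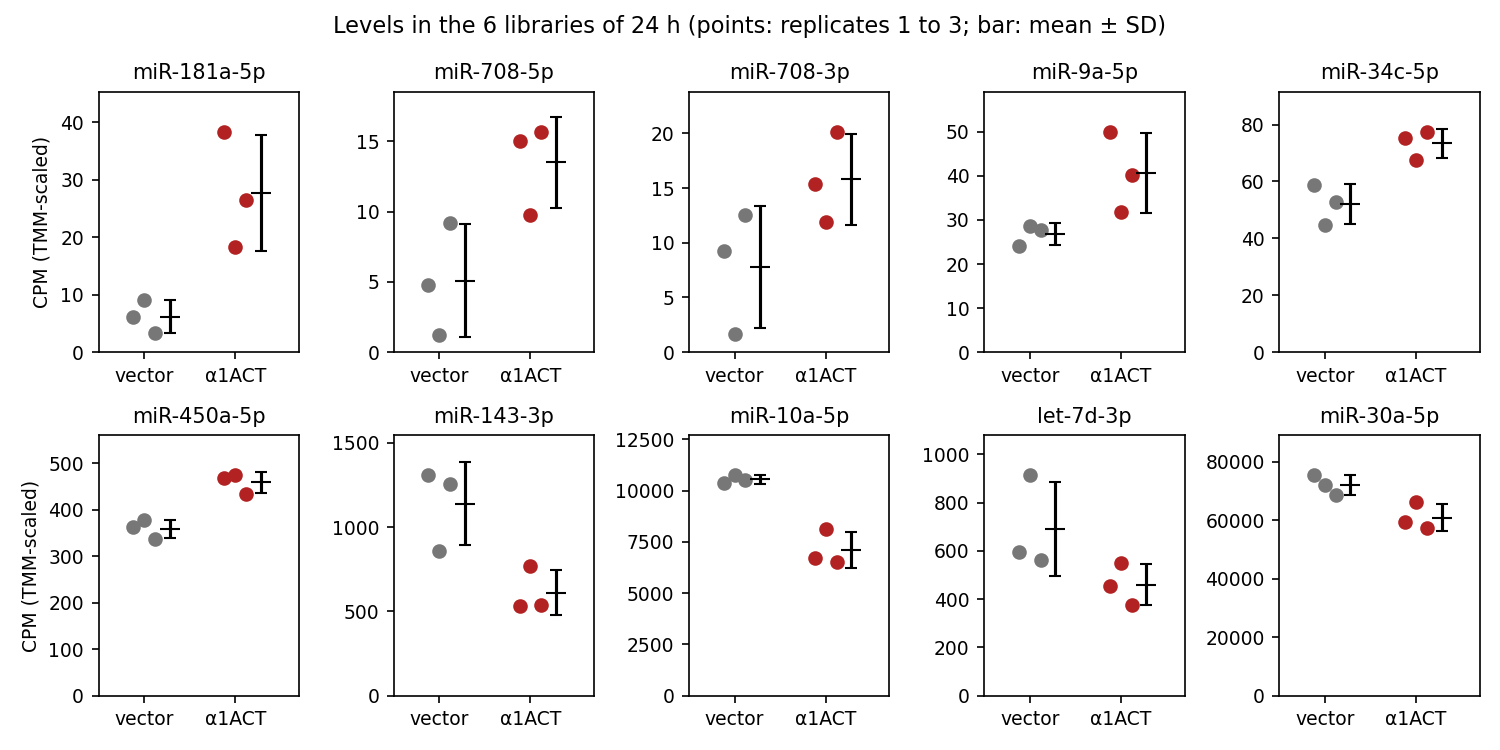
Level of 10 miRNAs in the 6 libraries of 24 h (CPM, linear axes from 0), with points for replicates 1 to 3 and the mean ± SD beside them. The panels were picked from miRNAs with small p-values at 24 h, so separation goes with the choice. The lines are apart for 9 of the 10, beside 46 of 269 (17.1%) over all tested miRNAs. For miR-708-3p the highest vector library (12.5 CPM) exceeds the lowest α1ACT library (11.9 CPM).

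Brain-enriched miRNAs were a mixed set. Of 23 listed entries 15 were tested and none was called, 11 had a positive and 4 a negative log2 fold change, and 3 passed an unadjusted p under 0.05, all upward (upward 5.2% of all tested). The median of the list was 0.13, beside 0.0040 over all tested. miR-9a-5p, a regulator of neural progenitors, was at 24.0, 28.7 and 27.7 CPM in the vector line and 50.0, 31.9 and 40.3 CPM in the α1ACT line. These did not overlap, with α1ACT replicate 2 just above the vector range (log2 fold change 0.61, SE 0.238, edgeR Benjamini-Hochberg adjusted p = 0.385).
miR-344b-5p was at 15.8, 16.6 and 8.56 against 20.3, 17.9 and 27.8 CPM (0.65, SE 0.279). miR-138-5p, known from dendritic spines, was at 1235 ± 185 against 1458 ± 133 CPM with an overlap (0.24, SE 0.112). The neuronal miR-124-3p had 0 counts in all 6 libraries, so the list does not describe mature neurons here. Of the other members, miR-128-3p had a log2 fold change of -0.019, miR-218a-5p of 0.011, miR-344b-1-3p of 0.11, miR-153-3p of 0.15 and miR-137-3p of 0.25. The scarce miR-218a-2-3p, on 6 to 25 counts a library, had the largest estimate of the list in either direction, at -0.75. miR-128-1-5p stood at -0.18 and miR-138-1-3p at -0.069, which completes the 4 negative estimates beside the 11 positive.

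The miRNAs linked to p53 all had positive estimates in the 4 of 9 entries that were tested, with a median of 0.19 and 1 at an unadjusted p under 0.05 (upward 5.2% of all tested). Over all tested miRNAs 139 of 269 had a positive estimate. miR-34c-5p, a transcriptional target of p53, was at 58.7, 44.9 and 52.7 CPM in the vector line and 75.2, 67.7 and 77.5 CPM in the α1ACT line. All α1ACT libraries lay above all vector libraries (log2 fold change 0.49, SE 0.169, edgeR Benjamini-Hochberg adjusted p = 0.252). miR-34a-5p, which has the same seed, was at 54.2 ± 5.48 against 63.0 ± 6.22 CPM (0.22, SE 0.183). The share of miR-34c-5p among reads with that seed was 48.5 ± 2.49% and 53.2 ± 1.60% (SD, n = 3, two-sided exact permutation p = 0.1, the smallest possible). That share restates counts already picked for their small p. miR-192-5p and miR-194-5p stood at 0.058 and 0.16.

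The miR-132 and miR-212 hairpins, whose shared transcript is induced by CREB in neurons, gave no call among 4 tested arms. miR-132-3p was at 87.4 ± 8.76 CPM in the vector line and 107 ± 7.24 CPM in the α1ACT line, without overlap (log2 fold change 0.28, SE 0.176), while miR-212-3p was at 50.8 ± 8.07 against 51.4 ± 3.88 CPM (0.025, SE 0.193). The miR-29 family, which targets collagens and DNA methyltransferases, had 5 of 6 members with a positive estimate, beside 139 of 269 over all tested, and a median of 0.25. Of these miR-29c-3p was at 1555 ± 336 against 1901 ± 116 CPM (0.29, SE 0.147), and no member passed an unadjusted p under 0.05.

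The 10 most abundant miRNAs at 24 h together took 72.7%, 73.9% and 72.3% of counts in the vector libraries and 71.6%, 72.2% and 70.9% in the α1ACT libraries. Every α1ACT library lay below every vector library, the difference of the means was -1.40 percentage points (73.0 ± 0.800% and 71.6 ± 0.632%, SD, n = 3), and the two-sided exact permutation p was 0.1, the smallest possible. miR-27b-3p led, at 160742, 163625 and 172270 CPM against 133059, 165309 and 129633 CPM. α1ACT replicate 2 fell inside the vector range (log2 fold change -0.21, SE 0.102).
miR-30a-5p was at 75471, 72234 and 68766 CPM in the vector line and 59280, 66265 and 57336 CPM in the α1ACT line, without overlap (-0.24, SE 0.0912, edgeR Benjamini-Hochberg adjusted p = 0.366). miR-22-3p went the other way, at 58134, 44482 and 62202 against 65858, 62778 and 69621 CPM, where the α1ACT libraries were all above (0.27, SE 0.108, edgeR Benjamini-Hochberg adjusted p = 0.390). let-7f-5p was at 99211 ± 13291 against 82764 ± 7365 CPM (-0.26, SE 0.128). miR-26a-5p, let-7i-5p and miR-16-5p had log2 fold changes of 0.050, 0.0018 and -0.049, and the sign of the last pair changed with the scaling.

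Among the families, the miR-30 group, which shares a seed across 5p arms, had 7 of 9 members with a negative estimate, beside 130 of 269 over all tested, and a median of -0.13. Both arms of miR-30a passed an unadjusted p under 0.05 (downward 5.2% of all tested), with miR-30a-3p at 1005, 903 and 920 against 775, 818 and 732 CPM (-0.28, SE 0.112). The arms of miR-30a did not overlap between the lines, while miR-30d-5p, miR-30e-5p and miR-30c-5p had log2 fold changes of -0.043, 0.00047 and -0.14. So within 1 seed group the estimates ran from about 0 to that of miR-30a-5p, and the differences between members were not tested.

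The group of miR-10, miR-99, miR-100 and miR-125, whose hairpins are partly shared with let-7 clusters, had a median of -0.14. In it 9 of 12 members had a negative estimate, beside 130 of 269 over all tested. Beside miR-10a-5p, miR-99b-5p was at 7210, 7754 and 9627 against 6486, 6552 and 4701 CPM (-0.47, SE 0.205), and miR-100-5p at 197, 211 and 247 against 177, 174 and 112 CPM (-0.49, SE 0.212). For both, which share a seed, the lines did not overlap and α1ACT replicate 3 was the lowest library. miR-125a-5p, from the hairpin next to miR-99b, was at 5543 ± 458 against 5049 ± 835 CPM (-0.13, SE 0.204).

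The miR-17-92 cluster and its paralogs, which favour proliferation, had 13 of 17 tested members with a negative estimate, beside 130 of 269 over all tested. Their median was -0.13, and none passed an unadjusted p under 0.05. Its most abundant members were miR-25-3p (-0.13) and miR-93-5p (0.066), made from 1 host transcript of Mcm7. For the let-7 family the median of 19 tested entries was -0.0046, and let-7d-3p was the one at an unadjusted p under 0.05. Both miR-210 arms and miR-484, listed for hypoxia and stress, had negative estimates, and 2 of the 3 passed an unadjusted p under 0.05 (downward 5.2% of all tested). miR-210-5p was at 133, 238 and 149 against 111, 158 and 119 CPM with an overlap (-0.43, SE 0.196), and at -0.10 on the log2 scale without vector replicate 2, while the guide arm miR-210-3p, known to be induced by hypoxia, was at 4766 ± 438 against 4202 ± 532 CPM (-0.18, SE 0.131).

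The scaling touches these family medians. Under upper-quartile factors the median over all tested miRNAs was 0.12 and under library totals 0.11, so every estimate moved up by about that much. Under both, the medians of the let-7 family, the miR-15/16 family, the inflammation-linked list, and the joint list of miR-130, miR-148, miR-152 and miR-301 turned from below 0 to above 0. The medians of the other lists named here kept their sign under all scalings run. Under library totals, though, 9 of the 17 members of the miR-17-92 list were below 0, as were 5 of the 9 of the miR-30 list. So were 7 of the 12 of the miR-10, miR-99, miR-100 and miR-125 group. Of lists not described so far, the cluster within Clcn5 had 6 of 7 negative estimates, beside 130 of 269 over all tested, and a median of -0.21. The miR-23, miR-27 and miR-24 clusters had a median of 0.028 over 10 members, and the miR-26 family one of 0.050 over 3. There was no call in any of these lists. No miRNA of the miR-221 and miR-222 list, the Dlk1-Dio3 cluster or the liver list had enough counts to be tested.

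**Figure D4:**
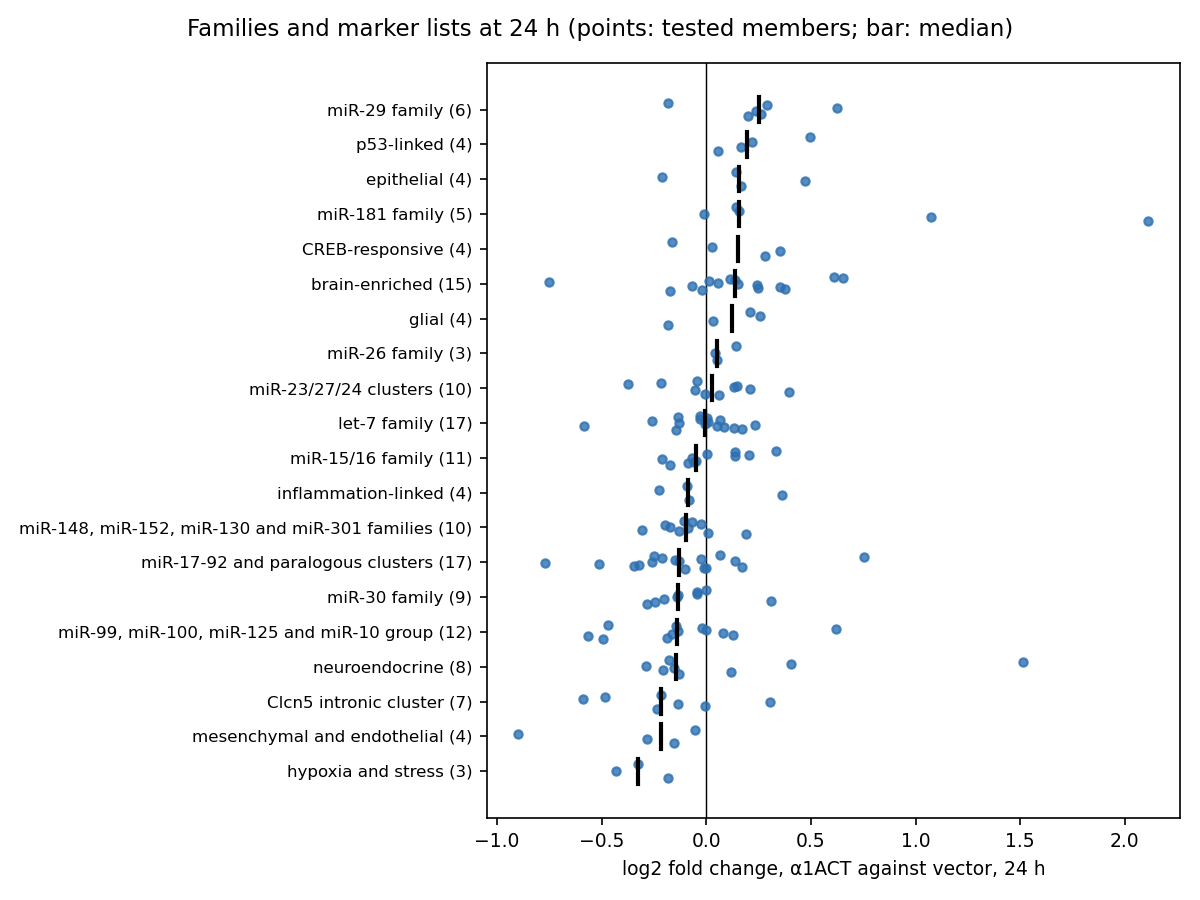
Log2 fold change of α1ACT against vector at 24 h for the tested members (points) of 20 families and marker lists with at least 3 tested members, and the median of each (black bar), ordered by median. let-7c-2-3p and let-7a-1-3p are not drawn. Medians lie between -0.33 (hypoxia and stress) and 0.25 (miR-29 family), and the miR-181 list has 1 member, miR-181a-5p, far above its others.

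let-7c-2-3p and let-7a-1-3p have identical RefSeq sequences, and every library counted reads under 1 of the names alone. At 24 h let-7c-2-3p had 215, 0 and 74 counts in the vector line and 0, 193 and 0 in the α1ACT line, and let-7a-1-3p had 0, 188 and 0 against 207, 0 and 152. The entries complement each other library by library, so their separate log2 fold changes carry no information on the lines. Summing them, an alternative chosen after seeing the data, left 268 miRNAs, of which 2 were called, miR-181a-5p and miR-143-3p.

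When counts were summed over miRNAs with the same seed, 219 groups were tested and 1 was called (0.457%), with 26 at an unadjusted p under 0.05 (11.9%). The called group had miR-143-3p as its single member, so it repeats that miRNA and is no separate result. The summed counts were fitted anew, and edgeR's unadjusted p was 0.000163, beside 0.000493 in the test of single miRNAs. The log2 fold change of the group was -0.91 (SE 0.203, edgeR Benjamini-Hochberg adjusted p = 0.0356). With the replicate block its adjusted p was 0.0887, and it ran from 0.00643 to 0.371 over the 10 alternatives of the seed test. The call was lost without vector replicate 1 (0.108), vector replicate 3 (0.0760), α1ACT replicate 1 (0.371) and α1ACT replicate 3 (0.364). The next groups, those of miR-10a-5p, miR-708-5p and let-7d-3p, were single miRNAs as well. None of the 36 groups with 2 or more members was called.

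Cell type markers were read beside these results. Of the mesenchymal and endothelial list, 4 of 8 entries were tested, all with negative estimates, a median of -0.22 and a summed level of 971 to 1449 CPM in the vector line and 646 to 889 CPM in the α1ACT line. Nearly all of that sum is miR-143-3p. Its cluster partner miR-145-5p, the defining miRNA of smooth muscle, had 0 counts in 5 of the 6 libraries and 2 in α1ACT replicate 3, and miR-199a-3p of fibroblasts was at 13.1 ± 2.12 against 12.6 ± 4.37 CPM. miR-126a-5p of endothelium was at 89.9 ± 9.46 against 73.8 ± 1.71 CPM (-0.28, SE 0.166). In bulk cultures fewer cells of a type and less RNA per cell cannot be told apart.

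The glial list (miR-338 and miR-219a) was summed at 370 to 510 CPM in the vector line and 488 to 578 CPM in the α1ACT line, with 4 of 4 arms tested and a median of 0.12. Most of that sum is miR-338-3p (log2 fold change 0.26), and miR-338-5p stood at 0.21. The scarce miR-219a-1-3p and miR-219a-5p, on 16 to 38 counts a library, stood at -0.18 and 0.034. The muscle marker miR-499-5p was at 11.2 ± 1.20 against 15.5 ± 0.400 CPM (0.47, SE 0.334), with miR-133a-3p at 0 counts throughout. The epithelial list was summed at 420 to 462 and 368 to 434 CPM, mostly miR-203a-3p (log2 fold change -0.21). Of its 9 entries 4 were tested, 3 with a positive and 1 with a negative estimate, and the median was 0.15. The positive ones were miR-200b-3p (0.47), miR-141-3p (0.17, on 15 to 39 counts a library) and miR-429 (0.14). miR-200c-3p and miR-141-5p had 0 counts. The blood-cell list was summed at 1.03 to 6.23 and 3.68 to 5.38 CPM with miR-223-3p at 0 counts. Of the neuroendocrine list 8 of 11 entries were tested, with a median of -0.14. miR-7a-5p, its member at an unadjusted p under 0.05, had 6, 2 and 5 counts against 8, 13 and 21. The part of these markers in the differences between the lines was not tested.

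To ask whether a difference belonged to 24 h, the 24 h contrast was set against the mean of the contrasts at 6 h, 3 d and 10 d in the same edgeR fit. The vector line had only 2 libraries at 6 h. Replicate 2 of the vector line at 6 h was crossed with that at 10 d between the 2 deposited count tables. The values at 6 h and 10 d are uncertain to that extent. No miRNA was called, also by DESeq2 and limma-voom, and 6 passed an unadjusted p under 0.05 with edgeR (2.23%). For miR-181a-5p the log2 fold change was 2.11 at 24 h, beside 1.83, 1.78 and 1.93 at 6 h, 3 d and 10 d in that order. For miR-143-3p it was -0.90 beside -0.65, -0.83 and -0.67, and for miR-10a-5p -0.57 beside -0.27, -0.36 and -0.72. miR-708-5p stood at 1.50 beside 1.14, 0.66 and 1.36. None of these 4 had an unadjusted p under 0.05 for the difference between times.

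Of the 6, miR-450a-5p had the smallest p, with 0.35 at 24 h beside -0.0075, 0.023 and 0.11. The difference was 0.31 (unadjusted p = 0.0183 and adjusted p = 0.991, edgeR with Benjamini-Hochberg). miR-374-3p was at 354, 392 and 251 against 451, 492 and 393 CPM at 24 h, where α1ACT replicate 3 lay just above vector replicate 2 (0.42 beside -0.14, -0.034 and 0.25). The scarcer miR-877 was at 55.3, 56.1 and 69.1 against 54.6, 42.1 and 33.6 CPM, a log2 fold change of -0.46 at 24 h beside 0.28, 0.32 and -0.033. miR-210-5p stood at -0.43 beside 0.31, -0.35 and 0.38, miR-671 at -0.32 beside 0.14, 0.053 and -0.020, and miR-212-5p at -0.16 beside 0.36, 0.50 and 0.27. miR-99b-5p and miR-100-5p changed sign between 6 h (0.67 and 0.54) and 10 d (-0.66 and -1.0), the times of the crossed vector libraries. For both miRNAs the 24 h value lay between the early and the late one.

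Over all 269 miRNAs, 101 (37.5%) had a log2 fold change of the same sign at all 4 times, and so did 16 of the 28 (57.1%) with an unadjusted p under 0.05 at 24 h. Across miRNAs with at least 10 CPM the 24 h log2 fold change correlated with that at 6 h at 0.57 (Pearson) and 0.46 (Spearman), with that at 3 d at 0.61 and 0.41, and with that at 10 d at 0.63 and 0.45. These are descriptions across miRNAs that share the same lines, and let-7c-2-3p and let-7a-1-3p were left out of them.

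**Figure D5:**
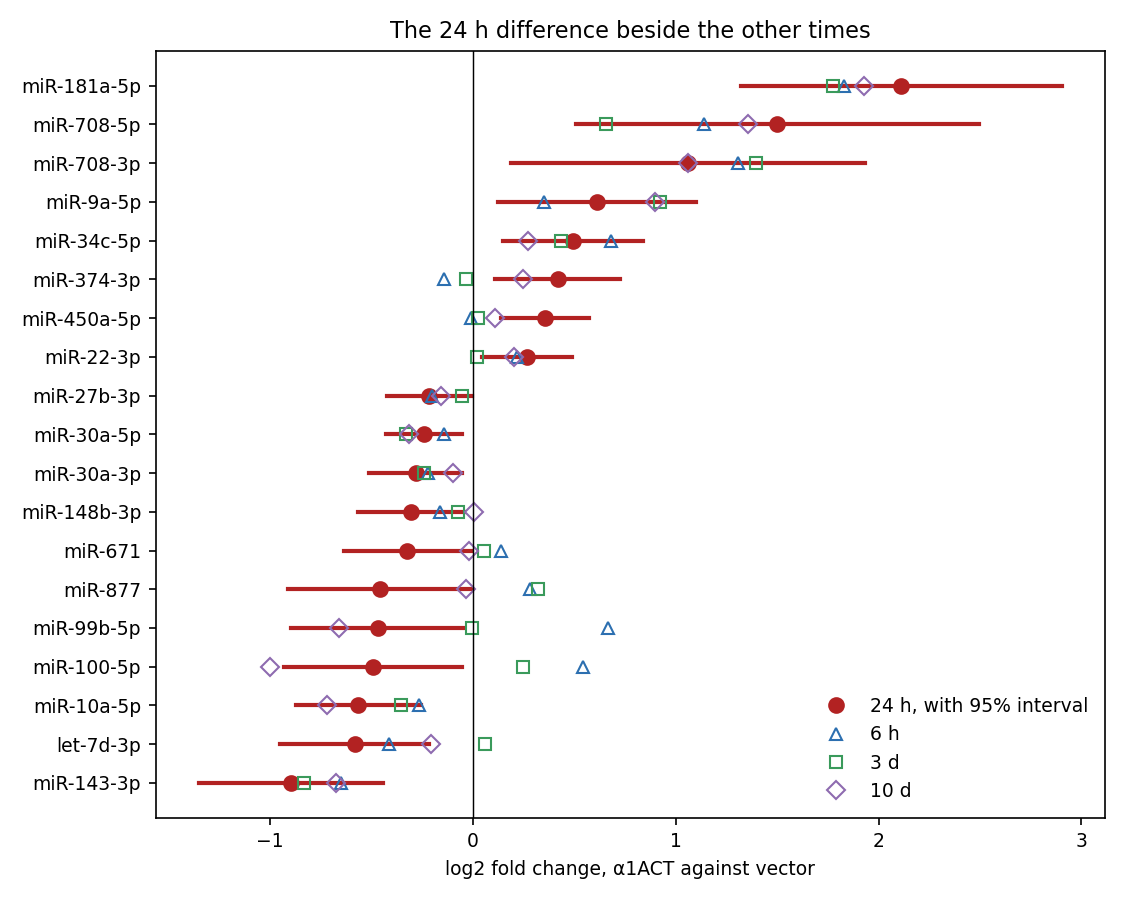
Log2 fold change of α1ACT against vector for 19 miRNAs at 24 h (filled circles with 95% confidence intervals) and at 6 h, 3 d and 10 d (open symbols without intervals). The vector line had 2 libraries at 6 h, and its replicate 2 was crossed with that of 10 d between the deposited tables. miR-181a-5p lies between 1.78 and 2.11 at all times, miR-450a-5p is near 0 except at 24 h, and miR-99b-5p and miR-100-5p are above 0 at 6 h and below 0 at 10 d.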

How the data were processed

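The values are whole-number read counts per mature miRNA, as the authors deposited them, without normalization. The names given to the 2 deposited count tables point to sRNAbench (the main one, 413 entries) and Chimira (627 entries). edgeR is named per the submitters' processing notes. Their versions, the aligner, the build and the miRNA annotation were not given in the sources used here. By name, control columns were read as the vector line and WT columns as the α1ACT line, an assumption resting on the repeat of normal length. In each of the tables, a further 12 columns belong to none of the samples and were not used. The entry with no name held 0 counts (0%). The miRNAs, lists and tests were chosen with earlier results of these data known.

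Counts were fitted with edgeR 4.0.16 in R 4.3.3 (filterByExpr, TMM, robust quasi-likelihood, 1 mean per group over all 23 libraries, which share 1 estimate of the spread). Benjamini-Hochberg adjusted p under 0.05 counted as a call. Standard errors come from the log2 fold change and its F value. Arm ratios, log2 of the 5p over the 3p count with 0.5 added to each, were tested with limma 3.58.1. Single values per library had exact permutation tests. The steps were tested on simulated data. Seeds came from RefSeq mature sequences, which 381 of 413 entries matched. Named miRNAs were those called, the 10 smallest p per direction with at least 10 CPM, the 10 most abundant, the 3 smallest p of each list with the other members of a family described, the smallest p of the seed, arm and time tests, and the largest folds without overlap. The text does not describe all of them. Among those left out are miR-1843b-5p (24 h log2 fold change 0.75), miR-664-2-5p (0.52), miR-298-5p (0.23), miR-148b-3p (-0.31) and miR-501-3p (-0.59).

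Same-numbered libraries of the lines deviated together at 24 h (correlations of 0.16, 0.33 and 0.15), while those of unlike number ranged from -0.27 to 0.12. Deviations from the mean of a line are tied to each other, so these correlations are not independent. The numbers were taken to pair the libraries on the data alone, a check made for 24 h only. The main fit used no pairing, and the block was run as an alternative. No 2 replicates were alike within sampling noise (chi-square per degree of freedom 37.3 to 142). Each of the 6 libraries matched its own name in the other table, while the columns of replicate 2 of the vector line at 6 h and at 10 d were crossed between the tables. PCR reads without molecular identifiers are not independent molecules. The alternatives were the Chimira table, 3 scalings, 2 filters, DESeq2 1.42.0, limma-voom, the replicate block, leaving out each library, the 24 h libraries alone, and the exchange of that pair. Chosen after seeing the data were the sum of the identical let-7 entries and the 24 h libraries alone with the block.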

Additional observations from a re-analysis of the deposited data

How the results depend on the processing

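Of 269 miRNAs, 1 was called. Called were 3 with RLE factors, a mean of at least 10 CPM, DESeq2, or the 6 libraries of 24 h alone, 2 with upper-quartile factors, library totals, or the let-7 entries summed, and 0 with limma-voom (26 at an unadjusted p under 0.05) or the 24 h libraries alone with the block (47). The Chimira table, no filter and the exchange of the vector pair gave 1 each. With the replicate block there were 3 for miRNAs and 2 for seed groups, and the block changed no call of the arm or time tests. Leaving out 1 library gave 0 to 2 calls: 0 without vector replicate 1, where 32 stood at an unadjusted p under 0.05, and 2 without vector replicate 2 or α1ACT replicate 2.

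Seed groups called were 1, with 0 in the Chimira table or under library totals, 2 with a mean of at least 10 CPM, and 0 to 4 leaving out 1 library (4 without α1ACT replicate 2). The share of the 10 most abundant differed by -1.72 to -0.947 percentage points leaving out 1 library.

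Of 75 named miRNAs 67 kept their sign in every setting that gave them a value, up to 19. let-7i-5p turned negative at -0.016 (RLE, DESeq2), -0.028 (mean of at least 10 CPM), -0.00090 (limma-voom), -0.0017 (24 h alone) and -0.0015 (24 h alone with block). miR-16-5p and miR-21-5p turned positive at 0.068 and 0.018 (upper-quartile) and 0.057 and 0.016 (library totals). Leaving out 1 library, the sign of 7 changed: let-7i-5p ran from -0.022 to 0.063, miR-16-5p from -0.13 to 0.060, miR-10b-5p from -0.24 to 0.026, miR-182 from -0.21 to 0.029, miR-141-3p from -0.075 to 0.38, miR-26b-3p from -0.018 to 0.17 and miR-126a-3p from -0.38 to 0.16. The cause was not tested. Depth limits miRNAs under 10 CPM most.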

Other observations

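The Chimira table holds miRNAs that the main table does not list, and 13 of those had enough counts at 24 h to be tested there. None was called by edgeR (0 with a Benjamini-Hochberg adjusted p under 0.05, and 0 at an unadjusted p under 0.05). The most abundant was miR-335, made from an intron of the imprinted gene Mest, at 6338, 5820 and 5380 CPM in the vector line and 5083, 5058 and 4365 CPM in the α1ACT line. All α1ACT libraries lay below all vector libraries, at -0.27 on the log2 scale (SE 0.144, Benjamini-Hochberg adjusted p = 0.597 by edgeR). miR-30b-5p, a further member of the miR-30 seed group, was at 1516, 1414 and 1381 against 1410, 1363 and 1279 CPM, with an overlap and a log2 fold change of -0.090 (SE 0.107). miR-15a-5p, of the miR-15/16 family, was at 1370, 1095 and 1365 against 1260, 1327 and 1399 CPM (0.058, SE 0.106).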
